A study of Mus musculus with 2 samples.

Results

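CTCF occupancy was described at 8 genes that mark mature neurons and glia of the gut wall: Nos1, Vip and Chat, which serve neurotransmission, Elavl4, Uchl1 and Tubb3, which are found in most neurons, and Gfap and S100b, which mark glia. They are 8 of the 21755 protein-coding genes annotated on chromosomes 1 to 19 and X, and they were named as a list of cell markers, by a rule that uses no measured value, although earlier results of these data were known when the list was made. A gene's territory was its body plus 20 kb on both sides of every annotated transcription start site (TSS), and a summit, the base of highest enrichment in a peak, was assigned to each gene whose territory held it. The 8 territories covered 657037 bases and held 34 of the 73465 summits in the main peak list.

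The assay was ChIP-seq, in which DNA bound by a protein is pulled down with an antibody, here to CTCF, and sequenced. The material was intestine of newborn B6NCrl mice, at an age of 0 days. There was 1 group with 2 biological replicates, no other genotype, treatment or age, and sex was not collected. Both replicates were labelled with the same source material, a powder of intestines combined from several dissections, so nothing shows that they came from separate animals, and their spread may be technical. The peak lists measure protein on DNA and not transcripts. The labelled tissue therefore could not be checked against marker expression, and peaks from neurons or glia cannot be told apart from peaks of the other cells of the gut wall.

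The zinc fingers of CTCF read a long, asymmetric DNA motif, and together with cohesin the protein holds the borders of chromatin loops. Loops tend to form between motifs that point towards each other, which is why the strand of each motif is given. The enteric nervous system arises from neural crest cells that settle in the gut wall and become neurons, which drive peristalsis and secretion, and glia, which surround them. Inhibitory motor neurons of the gut use nitric oxide and vasoactive intestinal peptide, and excitatory motor neurons use acetylcholine.

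The sites below are the motif under the strongest summit of 7 of the genes, with the second strong site of Nos1 and Chat, because the results turn on these peaks. Each is written 5′ to 3′ on the strand of the motif, with the 19 bases of the motif in capitals and 5 bases of the mm10 genome on both sides. The coordinates are those of the capitals.
Nos1, chr5:117938380-117938398, + strand: aactgTTCACAGCAGGTGGCAGTCttgag
Nos1, chr5:117837114-117837132, - strand: aggagTGACCGAGAGATGGCGCTAagcct
Chat, chr14:32482276-32482294, - strand: cactgTGACCACATGGTGGCAGTAaagac
Chat, chr14:32473185-32473203, - strand: ccgccTTGCCACTAGAGGGGGCCTtctcc
Elavl4, chr4:110351946-110351964, + strand: cgccgCCGCCTCTAGGGGGCGCTTgacgt
Uchl1, chr5:66697275-66697293, + strand: cattaTGGCCACAAGGTGGCAGTAcagga
Tubb3, chr8:123406978-123406996, - strand: ccaggCTGCCTCTAGGGGGCAGAGgcagc
Gfap, chr11:102900985-102901003, + strand: gtctaGGGCCACTAGATGGCAGTGctgag
S100b, chr10:76271422-76271440, + strand: cagggCGGCCAGCAGAGGGAGACAgggag
The most frequent base at each position of the motif matrix, trained on chromosomes that carry none of the 8 genes, is shown for comparison.
Matrix: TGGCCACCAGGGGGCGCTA

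All 8 genes had at least 1 summit of the optimal list, the authors' list of peaks that passed a reproducibility filter (IDR, the irreproducible discovery rate). The background for that count was high, since 82.3% of protein-coding genes had such a summit by the same rule. All 8 also had a summit above the median signal of the list, against 72.4% of protein-coding genes. Only Elavl4 and Gfap, 2 of 8, had a summit within 1 kb of a TSS, against 45.7% of protein-coding genes. With 8 genes and 1 group these shares are a description, and no test was made.

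Signal is the authors' own enrichment value of a peak, and how it was normalized is unknown. In the optimal list it ran from 4.48 to 756, with a median of 76.0. Of the 34 summits 22 were above that median, 15 were above 200 and 5 were above 400. The 5 strongest belonged to Gfap, with 2, to Nos1, with 2, and to Chat, with 1. The shares above 200 and 400 were not taken for all optimal summits. When all optimal summits on the chromosomes of the 8 genes were put in 10 equal groups by rising signal, groups 8, 9 and 10 began at 178.6, 272.9 and 380.5. The glial genes held 5 summits with a median signal of 298, all above the median of the list. The transmitter genes held 18, of which 11 were above it, and the pan-neuronal genes held 11, of which 6 were.

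**Figure D1:**
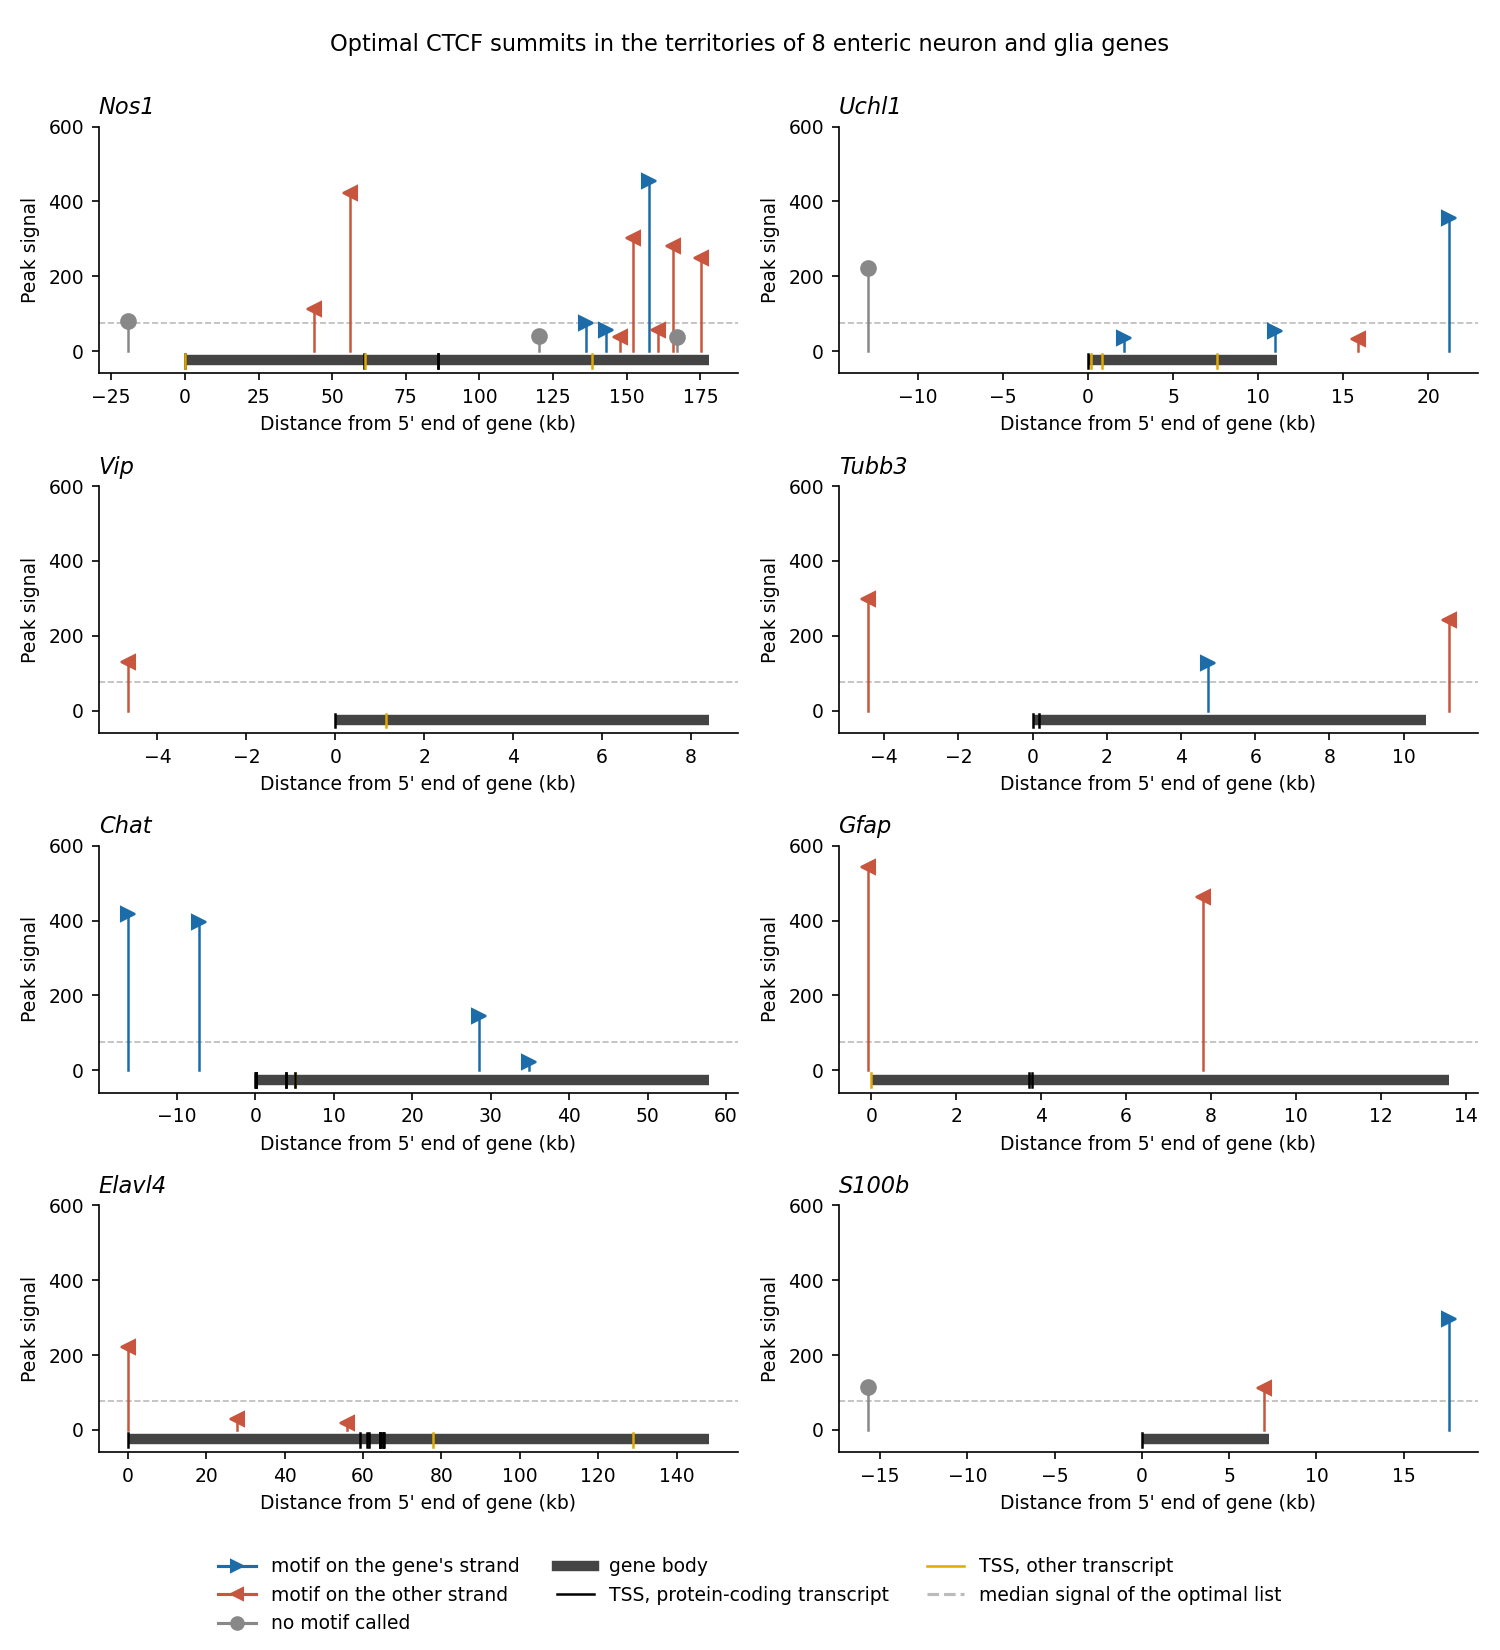
Optimal CTCF summits of each gene, drawn by distance from the gene's 5′ end in kb in the direction of transcription (horizontal) and by peak signal (vertical), with triangles for the motif strand, circles for summits without a called motif, ticks for TSSs and a dashed line at the median signal of 76.0. Gfap has a summit of 542 at its 5′ end, the Nos1 summits crowd towards the 3′ end, and Vip has a single summit upstream.

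The place of a summit was taken relative to its member gene alone, and exons of other genes were not looked at. Introns held 17 of the 34 summits, the upstream side held 7, the downstream side 4 and untranslated exon sequence 3. Promoters within 1 kb of a TSS held 2, and coding exons 1. Introns thus had 50% and promoters 5.88%, beside 34.2% and 16.8% of the 86848 pairs of a summit and a territory over all protein-coding genes. The territory takes in whole gene bodies, and Nos1, the longest of the 8 genes, gave 11 of the 17 intronic summits. Those upstream were all above the median signal, whereas 7 of the intronic ones were. Another protein-coding gene had a TSS nearer than the member's own at 6 summits, and 12 summits lay inside another annotated gene. A position in a territory therefore does not assign a peak to that gene alone. The counts of 6 and 12 were not taken over all protein-coding genes, so they have no background.

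Nos1 (ENSMUSG00000029361.18), which encodes the neuronal nitric oxide synthase of inhibitory motor neurons, is 177.8 kb long and lies at chr5:117781032-117958840 on the + strand of mm10. It held 13 summits, the most of the 8 genes, and 7 were above the median signal. Its territory of 197.8 kb had 6.57 summits per 100 kb, above 59.7% of protein-coding genes. Among the 806 genes whose territory length was within 20% of this one, the median count was 7 with an interquartile range of 4 to 10, and 84.6% had fewer summits.

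The summits of Nos1 were unevenly spread. From the upstream summit, 19.4 kb before the 5′ end and inside the body of Ksr2, the next lay 43.7 kb inside the gene, and the widest gap between neighbours was 64.0 kb. Of the 13 summits 10 fell in 55.1 kb, from 120.1 to 175.2 kb after the 5′ end, and 4 of these 10 were above the median signal. The annotated 5′ end belongs to transcript Nos1-205, which ends before this stretch, while Nos1-206 starts further in and runs through it.

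The strongest Nos1 summit, at chr5:117938404 in an intron 157.4 kb after the 5′ end and inside the overlapping annotated gene Gm26995, had a signal of 455 in the optimal list, 227 in replicate 1 and 229 in replicate 2. The next, at chr5:117837125, had 421 in the optimal list, 208 in replicate 1 and 213 in replicate 2. It is intronic in transcript Nos1-205, and lies 4.73 kb upstream of the TSS of the protein-coding transcript Nos1-206, the nearest start site. Nos1 has several annotated promoters, and the other strong summits, given next, lay 65.9 to 89.1 kb from the nearest coding one.

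The other summits of Nos1 above 200 were all near its 3′ end. The one at chr5:117933059 had a signal of 301.5, with 157 in replicate 1 and 144 in replicate 2. The one at chr5:117946802 had 279.5, with 136 and 145. The one at chr5:117956215, in the untranslated part of the last exon, had 248, with 119 and 129, and the nearest start site was that of Fbxo21, an F-box protein gene, 20.5 kb away. The intronic summits at 301.5 and 455 were 5.35 kb apart, and their motifs pointed away from each other.

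Weak summits made up the rest of Nos1. The 6 below the median ran from 36.6 to 75.1, and 4 of them had a called motif. The weakest in replicate 1, at chr5:117901101, had a signal of 11.4 there and 28.7 in replicate 2, ranks 69435 and 43076 of 300000. It was not within the conservative list, the shorter of the IDR lists with 70556 peaks. The replicates therefore placed this summit far apart in their order, while their order of the 5 above 200 was close.

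Vip (ENSMUSG00000019772.5), the gene of vasoactive intestinal peptide, spans 8.4 kb at chr10:5639218-5647617 on the + strand. It had 1 summit, the fewest of the 8, which lay 4.67 kb upstream. The signal was 131 in the optimal list, 63.1 in replicate 1 and 67.7 in replicate 2. Of the 11806 genes with a territory of similar length, 26.9% had fewer summits, 13.01% had the same number and 60.1% had more. The strongest summits of 34.2% of protein-coding genes were weaker, counting genes without a summit as 0.

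The surroundings of Vip were sparse on the 3′ side. The next optimal summit outside the territory lay 38.9 kb beyond the gene's 5′ end, with a signal of 332, and on the other side 139.5 kb beyond its 3′ end, with 279.

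Chat (ENSMUSG00000021919.8) encodes choline acetyltransferase, which makes acetylcholine, and lies at chr14:32408203-32465989 on the - strand. Its 4 summits, 3 of them above the median signal, were the same number as the median of the 3045 genes with territories of similar length. The summit 16.3 kb upstream had a signal of 418 in the optimal list, 206 in replicate 1 and 216 in replicate 2. The summit 7.20 kb upstream had 397, with 200 in replicate 1 and 197 in replicate 2. Both strong summits were thus upstream, and both lay inside the annotated gene Gm2990.

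The intronic summits of Chat were weaker. The one 28.5 kb after the 5′ end had a signal of 144, with 78.6 in replicate 1 and 67.1 in replicate 2. The one 34.9 kb after it had 21.1, with 8.50 and 11.1, and ranked 67365 in the optimal list. All 4 motifs lay on the strand of the gene, the only gene of the 8 with more than 1 motif for which this was so. Slc18a3, which encodes the vesicular acetylcholine transporter and sits within the 5′ part of Chat on the same strand, shared the pair of upstream summits and had no other.

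Elavl4 (ENSMUSG00000028546.17), which encodes the RNA-binding protein HuD of neurons, is 148.2 kb long and lies at chr4:110203722-110351909 on the - strand. It had 3 summits in a territory of 168.8 kb, or 1.78 per 100 kb, the lowest density of the 8 genes. Among 1032 genes with territories of similar length the median was 6, and 75.5% had more. Only 1 of its summits was above the median signal.

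That summit was at the promoter. It lay at chr4:110351967, 58 bases upstream of the most upstream coding TSS, of transcript Elavl4-207, and had a signal of 222 in the optimal list, 102 in replicate 1 and 121 in replicate 2. The sequence around it is printed because it is the only RefSeq promoter of the 8 genes that held a summit. It is 70.4% G or C, with 10 CpG dinucleotides in 81 bases, on the + strand at chr4:110351915-110351995, with the motif in capitals.
Elavl4 promoter: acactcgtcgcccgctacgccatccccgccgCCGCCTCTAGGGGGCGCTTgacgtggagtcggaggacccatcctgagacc
The other coding start sites of Elavl4 are 59.2 to 65.3 kb further downstream and had no optimal summit within 1 kb.

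Elavl4's other summits were among the weakest of all. The one 27.8 kb into the gene had a signal of 28.9, with 18.5 in replicate 1 and 9.32 in replicate 2. The conservative list had no peak at identical coordinates. That list also held 3 summits in the Elavl4 territory, so it had a peak there at other coordinates. The one 55.9 kb into the gene had 18.3, with 8.31 and 9.09, the lowest optimal signal of the 34 summits. All 3 motifs of Elavl4 pointed against transcription. Both replicate lists also had a peak near the coding TSS of Elavl4-209, 28 bases away in replicate 1 with a signal of 20.5 and 90 bases away in replicate 2 with 17.1. This peak was absent from the optimal list although both ranks, 50290 and 56830, were among the strongest 73465, and it had no called motif.

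Uchl1 (ENSMUSG00000029223.12) encodes a neuronal ubiquitin hydrolase, known as PGP9.5, and spans 11.1 kb at chr5:66676091-66687234 on the + strand. Its 5 summits in 47.6 kb gave 10.5 per 100 kb, the highest density of the 8 genes and above 81.1% of protein-coding genes. Only 2 were above the median signal, and both lay outside the gene body. The upstream one, 12.965 kb before the 5′ end and inside the antisense gene Uchl1os, had 221 in the optimal list, 109 in replicate 1 and 111 in replicate 2. The downstream one, 21.2 kb after the 5′ end, had 355, with 170 and 186. It was in the territory only through the start site of a retained-intron transcript 7.6 kb into the gene. With coding start sites alone Uchl1 held 4 summits. Its strongest was then the upstream one at 221, above 46.05% of protein-coding genes in place of 63.1%, a comparison added after seeing the data.

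The strong Uchl1 summits differed in their sequence. The downstream summit had the highest motif score of the 34, 22.57, and the upstream one had no called motif, with a best score of 5.67 against the threshold of 9.36. The weak summits lay between them at 35.3 in an intron, 54.5 in untranslated exon sequence and 31.8 downstream. For the exonic one the replicates gave 18.5 and 36.9. The peaks of the gene body were therefore all weak, and weak peaks made up 3 of the 5.

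Tubb3 (ENSMUSG00000062380.4), the neuronal beta-III tubulin, spans 10.6 kb at chr8:123411424-123422015 on the + strand. It had 3 summits, all above the median signal, and 53.6% of 11369 genes with territories of similar length had fewer. Summits lay on both sides of the gene and close to other genes' start sites. The upstream one, 4.44 kb before the 5′ end and 0.125 kb from a TSS of the melanocortin receptor gene Mc1r, had 299, with 157 in replicate 1 and 146 in replicate 2. The downstream one, 0.890 kb from a TSS of Def8, had 242, with 126 and 116.

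Within Tubb3 a single intronic summit, 4.73 kb after the 5′ end, had 128 in the optimal list, 67.8 in replicate 1 and 61.5 in replicate 2. All 3 lay inside the annotated gene Gm20388, which spans Tubb3. Its own start sites had no optimal summit. In replicate 1 a peak with a signal of 7.44 and rank 90603 lay 40 bases from the most upstream TSS. In replicate 2 a peak with 4.93 and rank 132238 lay 63 bases from the other coding TSS.

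Gfap (ENSMUSG00000020932.14) encodes the glial fibrillary acidic protein, an intermediate filament, and lies at chr11:102887336-102900912 on the - strand. It had the strongest summit of the 8 genes, with 542 in the optimal list, 286 in replicate 1 and 258 in replicate 2. That summit ranked 719 of 73465, and 95.4% of protein-coding genes had a weaker strongest summit. It lay at chr11:102900998, 86 bases upstream of the TSS of Gfap-203, a transcript annotated as non-coding, and 3.80 kb upstream of the nearest coding TSS. The summit is thus at the gene's annotated 5′ end and not at the promoter of its coding transcripts, and it lies inside the annotated gene Gm26668.

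The sequence of that site, chr11:102900954-102901034 on the + strand, is printed because it carried the strongest signal of the 34. It is 55.6% G or C and has no CpG, unlike the promoter of Elavl4, and its motif in capitals scored 20.74.
Gfap upstream site: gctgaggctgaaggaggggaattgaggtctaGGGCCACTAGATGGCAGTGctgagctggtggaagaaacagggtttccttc
The other Gfap summit, in a coding exon, had 462 in the optimal list, 235 in replicate 1 and 228 in replicate 2. It was the only summit of the 34 in coding sequence of its own member gene, and it ranked 2875. The count of 2 was the same as the median of 12818 genes with territories of similar length. It came to 4 when the strongest peaks of replicate 2 alone were used.

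S100b (ENSMUSG00000033208.7) encodes a calcium-binding protein of glia and spans 7.3 kb at chr10:76253853-76261159 on the + strand. It had 3 summits, all above the median signal, and each was nearer to another gene's TSS than to its own. The strongest lay 17.6 kb after the 5′ end, 0.866 kb from a TSS of Dip2a and inside that gene, with 298 in the optimal list, 152 in replicate 1 and 147 in replicate 2. The one in the untranslated part of its last exon, which also lies inside Dip2a, had 112.5, with 57.0 and 54.4. The upstream one, 0.269 kb from a TSS of the arginine methyltransferase gene Prmt2, had 115, with 65.1 and 50.2, and no called motif.

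Across the genes, the number of summits followed neither territory length nor cell class in a simple way. Nos1 and Elavl4 had the longest territories, 197.8 and 168.8 kb, and held 13 and 3 summits. Chat, with 77.8 kb, held 4. Uchl1, with 47.6 kb, held 5, and the other short territories, those of Vip, Tubb3, Gfap and S100b, held 1 to 3. The median number of summits was 3 in the 8 genes and 3 in all protein-coding genes, with a median of 5.86 and 5.00 per 100 kb. The median signal of the strongest summit was 327 in the 8 genes and 267 in all protein-coding genes, with genes lacking a summit at 0. By that measure the 8 genes ran from Vip, above 34.2% of genes, over Elavl4 at 44.3%, S100b at 54.1%, Tubb3 at 54.3%, Uchl1 at 63.1%, Chat at 75.1% and Nos1 at 83.3% to Gfap at 95.4%.

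**Figure D2:**
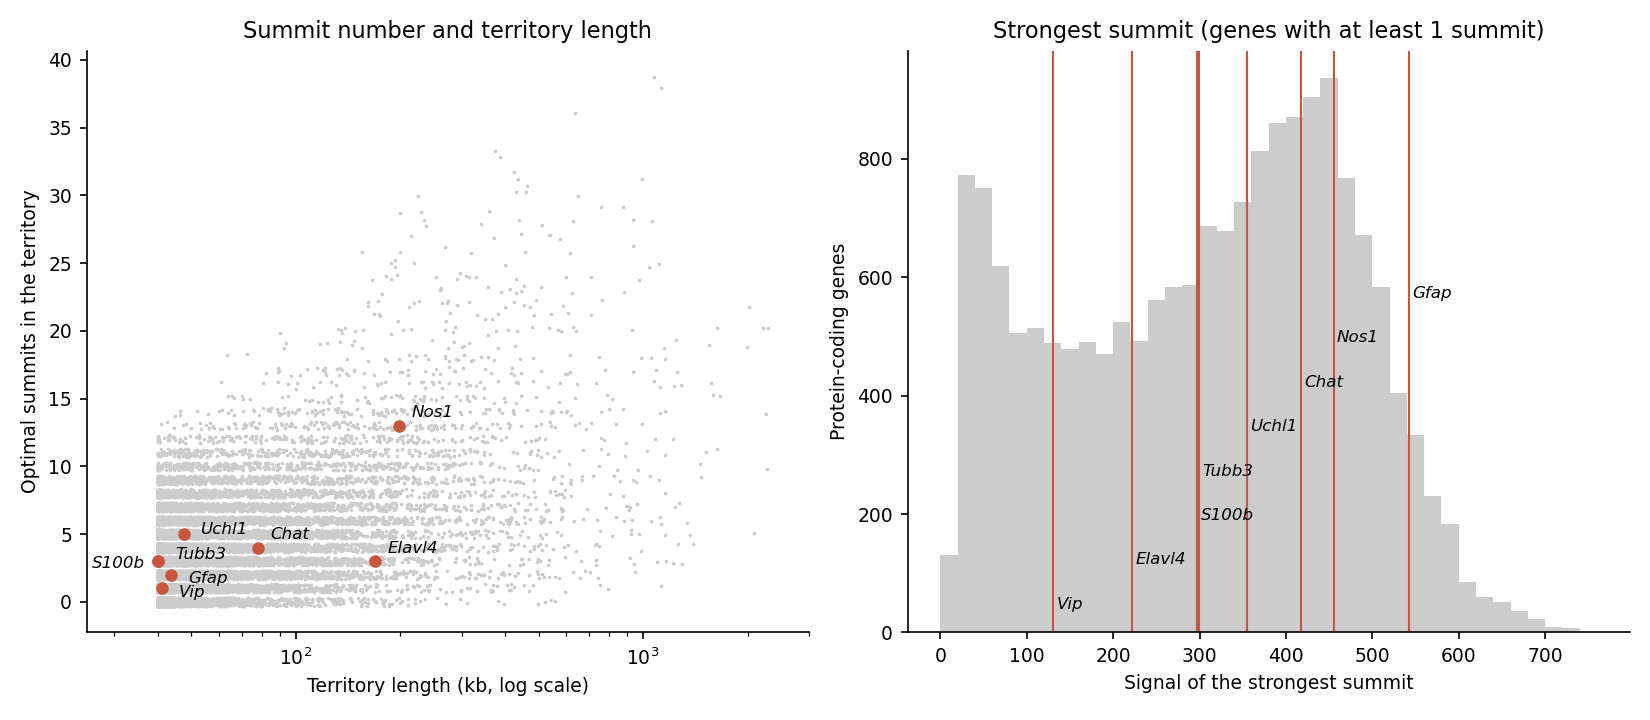
Left, optimal summits in the territory against territory length in kb (log scale) for protein-coding genes (grey, spread slightly in height; 12 genes with more than 40 summits are not drawn) and the 8 genes (red). Right, number of protein-coding genes by the signal of their strongest summit, with a red line for each of the 8 genes, from Vip at 131 to Gfap at 542.

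The motif was present under most of the summits. The sequence from 100 bases before to 100 bases after each summit was scored, on both strands, with a 19-base matrix, and a motif was called at a score of 9.36, which 5% of flanking windows of the training peaks reached. Motifs were called at 29 of the 34 summits, 85.3% with a 95% Wilson interval of 69.9 to 93.6%, beside 73.1% of all optimal summits on the same chromosomes and 4.86% of their flanking windows. The interval covers counting error only, and it includes the background share. Among summits above the median signal the shares were 86.4% for 19 of 22 and 86.6% for all. Among those at or below it they were 83.3% for 10 of 12, with an interval of 55.2 to 95.3%, and 59.9% for all.

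A score of 14.77, reached by 1% of the flanking windows, left 20 of 34 summits, 58.8%. The share of all optimal summits at that score was not taken, so this value has no background. Those without a called motif at the first threshold were 3 of Nos1, the upstream one of Uchl1 and the upstream one of S100b. The strongest summit of each of the 8 genes had one. The signals of these 8 ran from 131 to 542. In groups 7 to 10 of 10 equal groups by rising signal, 81.6% to 96.0% of all optimal summits on the same chromosomes had a motif. The median distance from the centre of the motif to the summit was 7 bases, and the median score was 16.04 at the 29 and 15.49 at all called motifs of these chromosomes.

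High signal did not always go with a high score. The strongest Nos1 summit scored 15.30 and the second 13.11, below the weaker Nos1 summits at 301.5 and 248, which scored 21.84 and 20.73. The weak intronic Elavl4 summit at 28.9 scored 19.19. Among all optimal summits of the chromosomes with members, the share with a called motif went from 45.9% in the weakest of 10 equal groups by signal to 96.0% in the strongest.

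**Figure D3:**
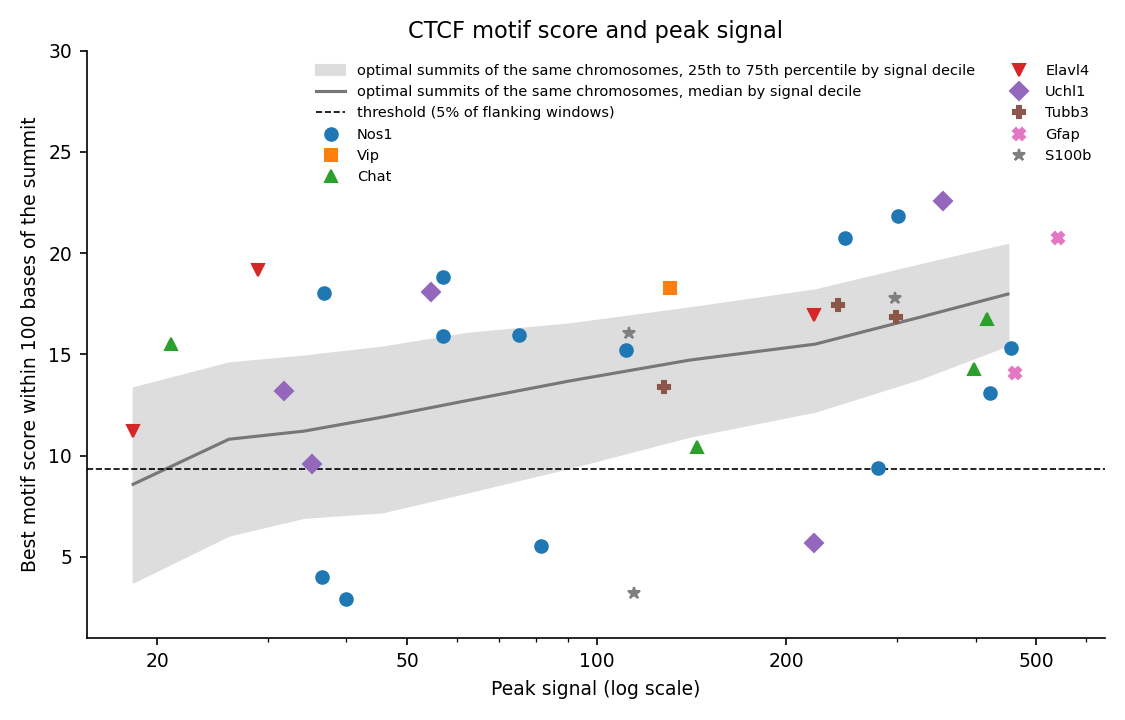
Best motif score within 100 bases of each of the 34 summits (vertical) against its optimal peak signal (horizontal, log scale), with the optimal summits of the same chromosomes as a grey median line and a band from the lower to the upper quartile in 10 equal groups by signal, and a dashed line at the threshold of 9.36. 5 summits lie below the threshold, and the Uchl1 summit at 355 has the highest score, 22.57.

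The called motifs varied at many positions. They matched the matrix's most frequent base at 10 to 16 of the 19 positions. A CpG, the dinucleotide that can be methylated and that occurs in some CTCF motifs, was in 9 of 29, or 31.03%, beside 38.5% of all called motifs of these chromosomes. Repeat-masked sequence overlapped 8 of 29, or 27.6%, beside 33.6%, and those were 4 of Nos1, 2 of Uchl1, 1 of Tubb3 and 1 of S100b.

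Motifs on the gene's strand numbered 12, or 41.4%, and those on the other strand 17, beside 49.98% on the gene's strand over the territories of all protein-coding genes of these chromosomes. Between neighbouring motifs of the same territory there were 21 pairs, of which 12 pointed the same way, 4 towards each other and 5 apart. These shares, 57.1%, 19.05% and 23.8%, stood beside 51.9%, 23.2% and 24.9% over the same background, and with so few pairs no difference is read from them. Chat had its 4 all in the direction of transcription, Elavl4 its 3 all against it, and Nos1 had 3 with it and 7 against it.

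RefSeq promoter sequences of GRCm38.p6, 300 bases each, were matched for all 8 genes, 11 promoters in all. The Elavl4 promoter at chr4:110351862-110352161 held both a summit and a called motif, and the other 10 held neither. The share of all RefSeq promoters that held a summit was not taken, so the summit count has no background. Of all 32619 RefSeq promoters of that length, 10.7% reached the threshold.

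Replicate support was complete by position. All 34 summits lay inside a peak of both replicate lists, beside 98.3% of all optimal summits, and all 34 had a replicate summit within 100 bases in both. The lists hold 300000 peaks each, most of them weak, with median signals of 4.23 and 4.41, so presence in a list is a loose criterion. Counting only the strongest 73465 of each list left 31 of 34, beside 61708 of those 73451. The rank order of the 34 was close between replicates, with a Spearman rho of 0.976. It was 0.971 over the 22 summits above the median signal and 0.636 over the 12 at or below it. These are descriptions, since the summits were chosen through a list made from both replicates, and all optimal summits gave 0.957, 0.975 and 0.688.

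**Figure D4:**
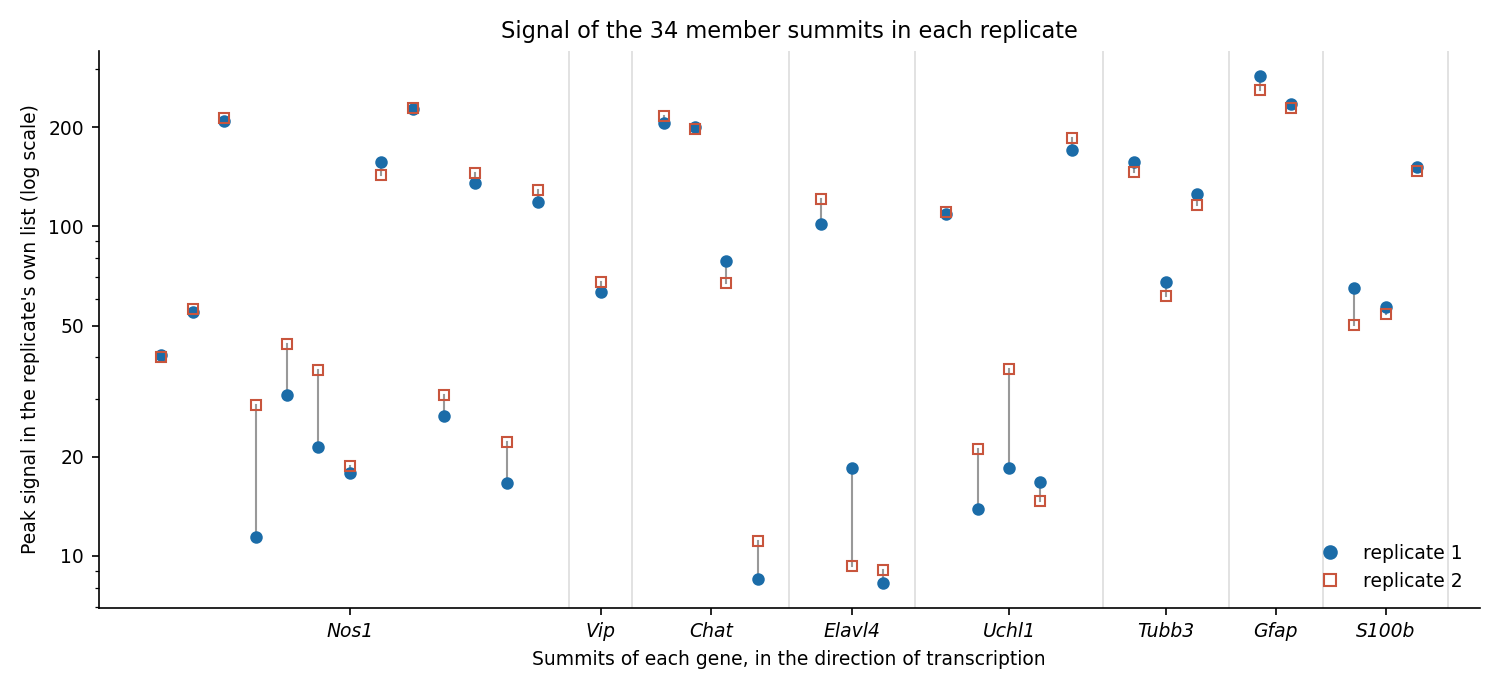
Peak signal of the 34 summits (vertical, log scale) in the list of replicate 1 (filled circles) and of replicate 2 (open squares), by gene in the direction of transcription (horizontal). The points nearly coincide for the strong summits and separate for weak ones, such as the Nos1 summit with 11.4 and 28.7 and the Elavl4 summit with 18.5 and 9.32.

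The replicate lists had many more peaks in the territories than the optimal list. Replicate 1 had 122 and replicate 2 had 110, of which 34 in each, 27.9% and 30.9%, held an optimal summit, beside 24.3% of all peaks in both lists. Of the rest, 22 in replicate 1 and 20 in replicate 2 had a counterpart in the other replicate. The strongest of these were the peaks near Elavl4-209 described above. Nos1 had the most replicate peaks, 40 and 34, and Vip the fewest, 5 and 2.

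Related genes, taken from lists of further transmitter, pan-neuronal and glial markers and of paralogs, were scored by the same rule, beside a background of 82.3% of protein-coding genes with a summit and a median of 267 for the strongest. Of 20 transmitter genes 15 had a summit, 75%, and the median signal of the strongest was 93.5 with genes lacking one at 0, both below the background values. The count depended on the setting. It was 17 without replicate 2, beside 82.4% of protein-coding genes, and 19 with a 50 kb window, beside 88.7%. The other alternatives gave 11 to 16, and with 20 genes no difference is read from these counts. Th, which encodes tyrosine hydroxylase, with 603, and Penk, the enkephalin precursor, with 509.7 were the highest. Cartpt, Dbh, Npy, Slc5a7 and Tac1 had none. Slc5a7, the choline transporter of cholinergic neurons, thus lacked a summit in a territory of 59.8 kb, whereas Chat and Slc18a3 had them.

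Of 18 pan-neuronal genes 17 had a summit, 94.4%, with a median of 199 for the strongest. Rbfox3, which encodes the neuronal nuclear antigen NeuN, had 27 summits and a strongest of 523, and Mapt, the gene of tau, had 513. Dcx, the gene of doublecortin in young neurons, had none in 97.5 kb. Of 12 glial genes 11 had a summit, 91.7%, with a median of 268, led by Gpr37l1 with 393 and the neurotrophin receptor gene Ngfr with 390.3. Cdh19, a cadherin of neural crest glia, had none.

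All 23 genes in the list of paralogs and relatives had a summit. Of these, 20 had 1 above the median signal, beside 72.4% of protein-coding genes. The median of the strongest was 410, led by Tubb5 with 546 and S100a6 with 520. The list does not hold every relative of the 8 genes, some of which stood in the other lists, and its values depend on that choice. Some of the S100a genes are neighbours and can share a summit, so the 23 are not separate observations. Within families the levels varied. The nitric oxide synthase genes Nos2 and Nos3 had 3 summits each, with a strongest of 492 and 507.5, beside 455 at Nos1. Elavl1, the widely expressed member, had a strongest of 428. Of the neuronal members beside Elavl4, Elavl3 had 410 and Elavl2 had 55.8, with 2 summits in 186.2 kb.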

How the data were processed

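Peak lists on mm10 for each of 2 replicates and the optimal and conservative IDR lists were used. According to the deposited README, the IDR lists came from the replicate lists, a pooled list and a further file of unstated role. For aligner, peak caller, IDR threshold and read depth: not given in the sources used here. The signal of each peak is the authors' deposited value, and the summit comes from their deposited offset (a column of another kind, in bases).

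Territories used GENCODE M21; chromosome lengths were compared first. The motif matrix was trained on the 5000 strongest optimal peaks of chromosomes without a member, in 6 rounds with a pseudocount of 1. Comparison with territories within 20% in length was added after seeing the data. Members and lists were chosen with earlier results of these data known. Named were the 8 members, genes at their described summits, and in each related list the 2 with the strongest summit and all without one; Slc18a3, Nos2, Nos3 and Elavl1 to Elavl3 were named after their values were seen. No test was possible with 1 group. Alternatives changed the list, threshold, window, TSS set, overlap rule, motif settings and replicate. The scripts were tested on simulated data. Python 3.11.15, numpy 2.4.6, scipy 1.17.1, pandas 2.3.3, pysam 0.24.0, samtools 1.23.1 and matplotlib 3.10.9 were used. The sequences of some sites are not reported here.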

Additional observations from a re-analysis of the deposited data

How the results depend on the processing

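Of 155 alternative values 139 stayed near the reported one and 16 moved, where near means within 1.5 times for counts, signals and shares of genes, within the 95% Wilson interval for shares of summits and within 0.05 for the rank correlation. Counts at or near their maximum, such as all 8 genes with a summit, could move only by a large fall, so the tally is a loose measure. All 8 genes kept a summit under every list, threshold, window, TSS set, overlap rule and replicate choice that was run. The background was high there too, with 72.4% to 88.7% of protein-coding genes having a summit under the same settings. The total of 34 summits became 22 with only those above the median signal and 55 with a window of 50 kb, and it was 35 with either replicate alone. The conservative list also gave 35, and it held 32 of the 34 optimal peaks at identical coordinates. The share with a motif was 58.8% at the stricter motif threshold and 77.1% with either replicate alone, and no background share was taken at these settings. Above the median signal, Nos1 held 7 summits, Elavl4 1 and Uchl1 2. A 10 kb window left 3 at Uchl1 and 1 at S100b. A 50 kb window gave 2 at Vip, 9 at Uchl1, 9 at Tubb3, 8 at Gfap and 5 at S100b. With coding start sites alone, added after seeing the data, the strongest Uchl1 summit was 221. Leaving out the gene body beyond 20 kb of a TSS left 2 at Chat. Without replicate 1, Gfap held 4 summits, and without replicate 2 it held 3. The lists give no read counts, so the depth behind weak peaks is unknown. No paired analysis was possible because there is only 1 group.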
